A study of Mus musculus with 6 samples.

Results

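The nuclear receptors examined here are 46 mouse genes, chosen by name with earlier results of these data known. Every probe whose RefSeq accession belongs to one of the 46 symbols was taken, with no use of its measured values. They were represented by 66 of the 55646 probes and stood among 20274 named genes. The cells were EpiSCs (epiblast stem cells) of mouse strain 129/Sv, a pluripotent line type taken from embryos after implantation, and their total RNA was measured. All cultures began as the same seed culture, and each of 3 groups held 2 of them, A and B: EpiSC, kept in the maintenance condition; NPC1, after 1 day in a condition for neural plate development; and NPC2, after 2 days in it. The labels name no single agent in either condition, and no allele or transgene. Because duplicates share a seed culture, each p-value reflects the spread among these 6 samples alone, which could be technical, and in bulk RNA fewer cells of a type and less RNA per cell cannot be told apart.

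Nuclear receptors are transcription factors that bind DNA through zinc fingers and carry a pocket for small lipid-soluble molecules such as steroids, thyroid hormone or retinoic acid. Many recognise the hexamer AGGTCA, alone or repeated, and recruit coactivators or corepressors depending on whether a ligand sits in the pocket, while orphan receptors have no settled natural ligand. In the early mouse embryo Nr0b1, Nr5a2 and Esrrb act in the network that keeps cells pluripotent, Nr6a1 represses Pou5f1 as pluripotency ends, and Nr2f1 and Nr2f2 pattern the developing nervous system.

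Of 59305 non-control spots per array, 58.2% to 61.1% stood well above background and 0 were saturated; having 2 arrays per group limits the precision. Values are scaled intensities, the processed intensity of a probe after every array was brought to the same 75th percentile; they compare a probe with itself across arrays, not with another probe. A gene was called when its adjusted p in a limma fit of all 6 arrays was under 0.05. The receptors were read beside 6 cell type lists. The summed scaled intensity of 6 pluripotent cell markers ran from 88382 to 90924 in EpiSC, 43027 to 43786 in NPC1 and 7540 to 7835 in NPC2, with 5 of 6 markers lower and Nanog higher in NPC2 than in EpiSC. That of 6 neural plate markers ran from 7350 to 7820, 8252 to 8530 and 21747 to 22105 in the same order of groups, and 6 of 6 were higher in NPC2 than in EpiSC. Among other cell types, the sum of 7 endoderm markers was 2208 to 2302 in EpiSC, 172 to 208 in NPC1 and 929 to 972 in NPC2, with Ttr well above background on 0 arrays. Of its 5 tested members, 1 was higher and 4 were lower in NPC2 than in EpiSC. The sum of 7 primitive streak and mesoderm markers was 7043 to 7311, 4599 to 4881 and 4006 to 4525. A sum weighs bright probes most: of these 7 markers, 5 were lower and 1 higher in NPC2 than in EpiSC. Their median log2 change was -3.28, or -1.67 when genes below background in a group count only by the least change their signal allows. Fibroblast feeder markers summed to 3008 to 3144, 3910 to 4046 and 4809 to 5055, and neural crest markers, with Tfap2b on 0 arrays, to 1168 to 1172, 667 to 704 and 612 to 647. Of the 7 feeder markers, 1 was higher and 2 were lower in NPC1 than in EpiSC, beside 21.3% and 29.0% of all tested genes. In NPC2 4 of the feeder markers were higher and 1 lower than in EpiSC. Although the neural crest sum was lower in NPC2 than in EpiSC, 3 of its 5 tested members were higher there and 1 lower (median log2 change 0.88). Beside these marker counts, 28.3% of all tested genes were higher and 40.7% lower in NPC2 than in EpiSC. The part of these other cells in the results below was not tested.

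Of the 46 receptors, 32 could be tested, since they had a probe well above background in both duplicates of 1 or more groups, and 30 of these were so on all 6 arrays. Nr0b1 passed through EpiSC and NPC1, and Nr2f2 through NPC1 and NPC2, so both had to be high somewhere. The other 14 were not tested. Of these, 12 were well above background on 0 arrays: Nr0b2, a repressor without a DNA-binding domain; Esr1 and Esrrg of the estrogen-related branch; Thrb and Vdr, the receptors for thyroid hormone and vitamin D; Nr1h4 and Nr1i2, sensors of bile acids and xenobiotics; Nr2e1 and Nr2e3, known from forebrain and retina; Hnf4a and Hnf4g, known from liver and gut; and Nr4a3. The mineralocorticoid receptor gene Nr3c2 reached that level on 1 array, an NPC1 array, and Rorb on 1 EpiSC array.

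After 1 day 18 of the 32 tested receptors were called between NPC1 and EpiSC, 7 higher and 11 lower, against 50.3% of all 14772 tested genes (21.3% higher, 29.0% lower), and 4 of the 32 were called with a change of at least 2-fold, against 8.33%. After 2 days 23 were called between NPC2 and EpiSC, 11 higher and 12 lower, against 69.0% of all genes (28.3% higher, 40.7% lower), and 13 of the 32 were called with a change of at least 2-fold, against 19.9% of all genes. Between NPC2 and NPC1 23 were called, 12 higher and 11 lower, against 47.5% (20.8% higher, 26.6% lower). The receptors' shares of 56.2%, 71.9% and 71.9% lay near the background in both comparisons with EpiSC and above it in NPC2 against NPC1. Their median log2 changes were -0.02, 0.03 and 0.01, beside medians of -0.05, -0.10 and -0.04 over all tested genes. The direction of small changes rests on the scaling: with each array's median as the anchor the all-gene medians were -0.15 (NPC1 against EpiSC) and -0.18 (NPC2 against EpiSC), and in the authors' deposited value table they were 0.07 and 0.13. The share of calls that were higher, 42.3% for all genes in NPC1 against EpiSC, became 29.0% and 62.1% in these scalings, and the receptors split 5 higher to 12 lower and 10 to 7 there. For NPC2 against EpiSC the share of 41.0% became 34.4% and 61.2%, with receptors 10 to 14 and 16 to 11; for NPC2 against NPC1 43.9% became 46.8% and 59.0%, with receptors 12 to 11 and 13 to 9.

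**Figure D1:**
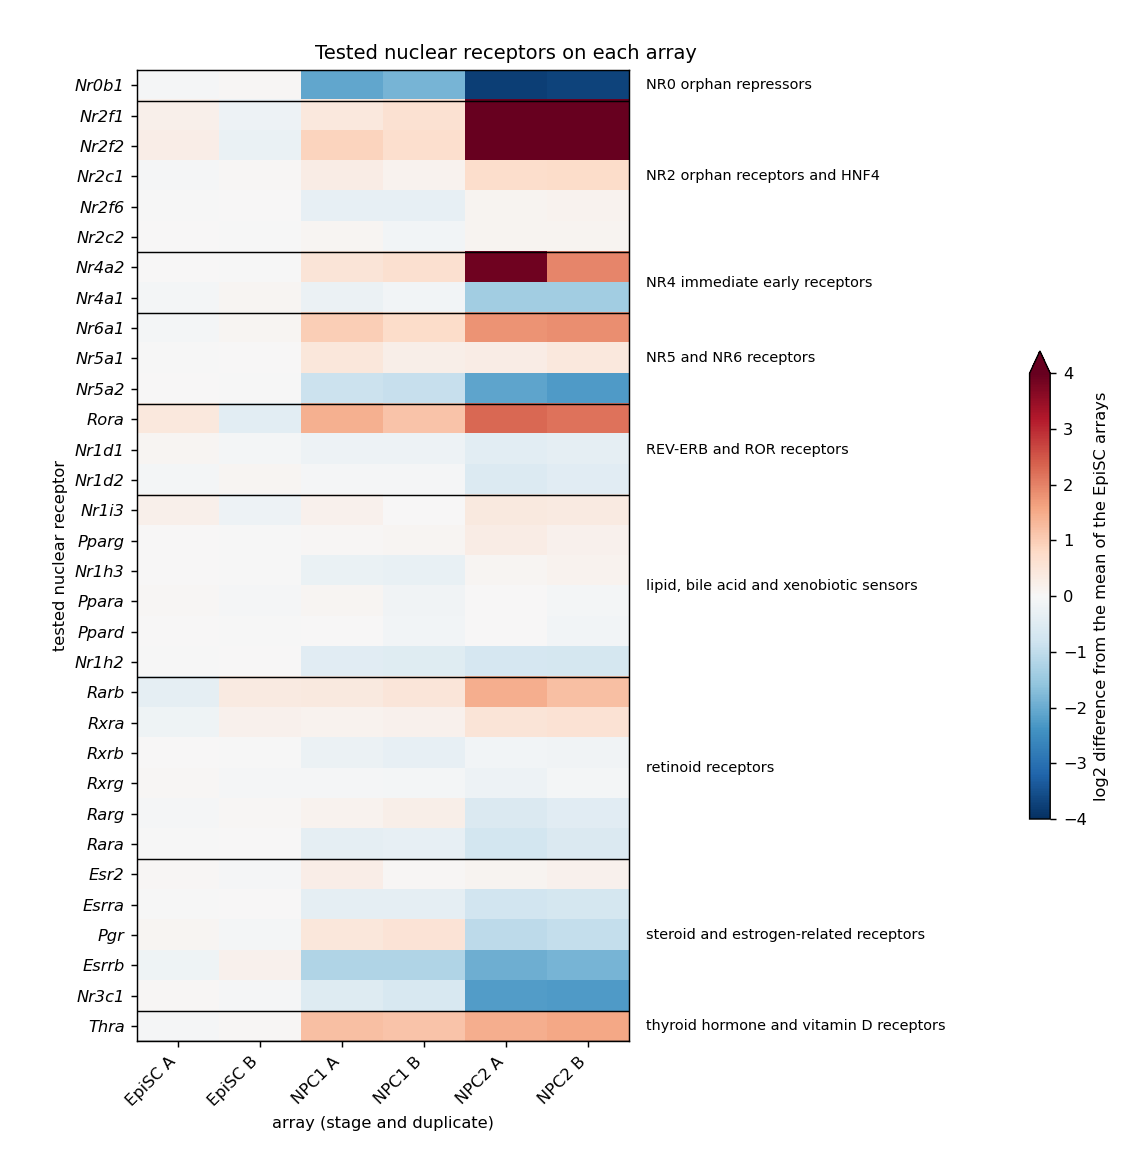
Each line is a tested receptor (32, grouped by branch), each column an array in the order EpiSC, NPC1, NPC2, and the colour is the log2 difference from the mean of the EpiSC arrays (red higher, blue lower; values above 4 share the darkest red). Nr2f1 and Nr2f2 are dark red on both NPC2 arrays, and Nr0b1, which is not well above background in NPC2, is dark blue there.

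The COUP-TF genes Nr2f1 and Nr2f2 rose more than any other receptor, and nearly all of that rise came on day 2. Nr2f1, an orphan receptor of the developing forebrain, had scaled intensities of 34.7 and 26.7 in EpiSC, 40.5 and 46.7 in NPC1 and 2447 and 2653 in NPC2. The NPC2 arrays stood far above all the others, and no groups overlapped. It was 83.7-fold higher in NPC2 than in EpiSC (log2 change 6.39 ± 0.15, SE, adjusted p = 1.24e-05, n = 2 arrays in each group throughout) and 58.6-fold higher in NPC2 than in NPC1 (5.87 ± 0.15). A separate Nr2f1 probe, well above background on 1 of 2 arrays in both EpiSC and NPC1, gave fitted values of 6.64 and 6.47 for the same comparisons. Nr2f2, its close relative and a regulator of venous and interneuron development, had 14.3 and 9.7 in EpiSC, 21.8 and 18.6 in NPC1 and 413 and 364 in NPC2. Again both NPC2 arrays lay apart from the other arrays, and 1 EpiSC array was not well above background. It was 32.9-fold higher in NPC2 than in EpiSC (5.04 ± 0.21, adjusted p = 4.37e-05) and 19.2-fold higher than in NPC1 (4.26 ± 0.21). Normexp background correction, which adds an offset to every spot and so shrinks changes of dim probes most, gave 2.60 and 2.41.
On day 1 the differences were small, 0.52 ± 0.15 for Nr2f1 (adjusted p = 0.0398) and 0.78 ± 0.21 for Nr2f2 (adjusted p = 0.0315) in NPC1 against EpiSC. Neither of these day 1 calls was stable: each was lost on leaving out any of 5 of the 6 arrays, and without EpiSC B the values were 0.33 (adjusted p = 0.115) and 0.49 (adjusted p = 0.0693). A promoter that RefSeq lists for Nr2f1 (250 bases before to 50 after the start, at chr13:78198824-78199123 of GRCm38.p6, minus strand; 1 of 2 listed) is shown because the gene leads the set; it has 23 CpG in 300 bases, against a mean of 13.5 over both listed, and held none of the 10 motifs searched for, so no base is in capitals.
Nr2f1: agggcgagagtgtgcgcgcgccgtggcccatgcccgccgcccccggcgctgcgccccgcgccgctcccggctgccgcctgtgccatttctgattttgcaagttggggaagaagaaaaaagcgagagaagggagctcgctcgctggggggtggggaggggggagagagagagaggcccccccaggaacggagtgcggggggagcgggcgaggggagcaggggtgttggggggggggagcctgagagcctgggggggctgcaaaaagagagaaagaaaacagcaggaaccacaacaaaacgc
The promoter listed for Nr2f2 also held none of them. RefSeq places the non-coding genes A830082K12Rik across Nr2f1 and B130024G19Rik across Nr2f2, and neither has a named probe here.

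Other members of the same branch moved little. Nr2f6, a COUP-TF relative that mostly represses, dipped on day 1: it had 7624 and 7829 in EpiSC, 6160 and 6204 in NPC1 and 8308 and 8432 in NPC2. The NPC1 arrays were the lowest of the 6. Its log2 change was -0.32 ± 0.043 in NPC1 against EpiSC (adjusted p = 0.00393) and 0.44 ± 0.043 in NPC2 against NPC1 (adjusted p = 0.00139), and NPC2 against EpiSC was not called (0.12, adjusted p = 0.0647) except with normexp, quantile normalization or the value table. Nr2c1, the testicular receptor TR2, had 480 and 511 in EpiSC, 611 and 548 in NPC1 and 803 and 824 in NPC2, and rose in NPC2 against EpiSC (0.72 ± 0.072, adjusted p = 0.000717). Its other probe gave 0.36 in that comparison. Nr2c2, the related TR4, was called in 0 comparisons, with 0.11 in NPC2 against EpiSC (95% confidence interval -0.07 to 0.29). The brightest probe of Mrps25, which overlaps Nr2c2 in RefSeq, fell by 0.56 in the same comparison.

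Receptors tied to pluripotency fell from day 1 onwards. Nr0b1 (Dax1), an X-linked repressor that lacks the usual DNA-binding domain, had 51.1 and 54.4 in EpiSC, 12.4 and 14.5 in NPC1, and was not well above background in NPC2 (3.88 and 4.02). It was 3.94-fold lower in NPC1 than in EpiSC (-1.98 ± 0.088, adjusted p = 0.000213) and at least 6.06-fold lower in NPC2 than in EpiSC, a bound that sets EpiSC against the lowest signal well above background on each NPC2 array, or Nr0b1's own where higher (adjusted p = 1.25e-05). Nr5a2 (Lrh1), an orphan receptor that helps keep Pou5f1 on in the mouse epiblast, had 5221 and 5216 in EpiSC, 2888 and 2753 in NPC1 and 1199 and 1096 in NPC2. Every stage lay below the one before without overlap. The log2 change was -0.89 ± 0.062 in NPC1 against EpiSC (adjusted p = 0.000636) and -2.19 ± 0.062, or 4.55-fold lower, in NPC2 against EpiSC (adjusted p = 1.74e-05), and the other Nr5a2 probe gave -1.07 and -2.36.
Esrrb, an estrogen-related receptor that needs no estrogen, had 214 and 267 in EpiSC, 104 and 105 in NPC1 and 62.4 and 65.5 in NPC2. Here too the stages did not overlap. It was 2.29-fold lower in NPC1 than in EpiSC (-1.20 ± 0.11, adjusted p = 0.00143) and 3.74-fold lower in NPC2 than in EpiSC (-1.90 ± 0.11, adjusted p = 0.000129). These 3 genes moved with the pluripotent cell markers, whose sums stand above. Normexp shrank the NPC2 against EpiSC values of Nr0b1 to -0.88 and of Esrrb to -1.21, and the NPC1 against EpiSC value of Nr0b1 to -0.62, with the calls kept.
The RefSeq promoters of Nr0b1 (chrX:86191525-86191824, plus strand) and Nr5a2 (chr1:136960399-136960698, minus strand; 1 of 2 listed) are shown because both fell and each holds 1 copy of the hexamer AGGTCA on the gene's strand, in capitals, at -126 to -121 and at -64 to -59 from the start.
Nr0b1: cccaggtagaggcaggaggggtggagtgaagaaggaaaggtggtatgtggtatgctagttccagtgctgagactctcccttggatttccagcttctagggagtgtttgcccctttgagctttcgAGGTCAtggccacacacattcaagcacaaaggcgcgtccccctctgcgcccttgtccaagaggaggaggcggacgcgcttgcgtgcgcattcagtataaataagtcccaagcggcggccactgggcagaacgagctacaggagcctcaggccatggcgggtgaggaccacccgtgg
Nr5a2: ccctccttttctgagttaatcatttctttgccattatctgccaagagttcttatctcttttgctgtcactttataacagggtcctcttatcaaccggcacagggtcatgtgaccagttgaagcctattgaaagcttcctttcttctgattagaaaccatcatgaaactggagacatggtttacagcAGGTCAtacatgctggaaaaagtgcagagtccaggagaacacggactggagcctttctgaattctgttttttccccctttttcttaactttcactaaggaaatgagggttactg
Of the 2 promoters listed for Nr5a2, the one shown was picked by its number of matches. Esrrb, which also fell, had no AGGTCA in its listed promoters, and 16.3% of all 32851 listed promoters hold it. A match of letters is a description and does not show a bound site.

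Nr6a1 (germ cell nuclear factor), known in mouse for repressing Pou5f1 at gastrulation, rose by a like step on each day. It had 356 and 400 in EpiSC, 748 and 633 in NPC1 and 1309 and 1357 in NPC2. The stages were apart in order, each above the one before. Its log2 change was 0.87 ± 0.10 in NPC1 against EpiSC (adjusted p = 0.00279), 0.95 ± 0.10 in NPC2 against NPC1 and 1.82 ± 0.10, or 3.53-fold, in NPC2 against EpiSC (adjusted p = 0.000115). Day 2 less day 1 was 0.09 (95% confidence interval -0.38 to 0.56, adjusted p = 0.749). Its RefSeq promoter (chr2:38784466-38784765, minus strand, 1 of 2 listed and picked by its number of matches) is shown as the counterpart among the rising genes. It was chosen since it holds the hexamer 2 times on the opposite strand (TGACCT in capitals, at -91 to -86 and -45 to -40).
Nr6a1: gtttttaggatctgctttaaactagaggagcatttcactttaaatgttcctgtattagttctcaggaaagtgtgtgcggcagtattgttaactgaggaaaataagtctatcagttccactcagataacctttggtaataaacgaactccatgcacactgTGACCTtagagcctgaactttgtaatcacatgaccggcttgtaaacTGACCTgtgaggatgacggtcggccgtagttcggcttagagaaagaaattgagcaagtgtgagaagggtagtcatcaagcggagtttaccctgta
Pou5f1 itself was 6.32-fold lower in NPC2 than in EpiSC (-2.66 ± 0.073). The remaining gene of this branch, Nr5a1, which drives steroid hormone synthesis in adrenal and gonad, had 130 and 140 in NPC2 against 104 and 107 in EpiSC (0.35 ± 0.090, adjusted p = 0.0192), and the call was lost without EpiSC A, EpiSC B or NPC2 B (adjusted p = 0.0635 to 0.0949).

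**Figure D2:**
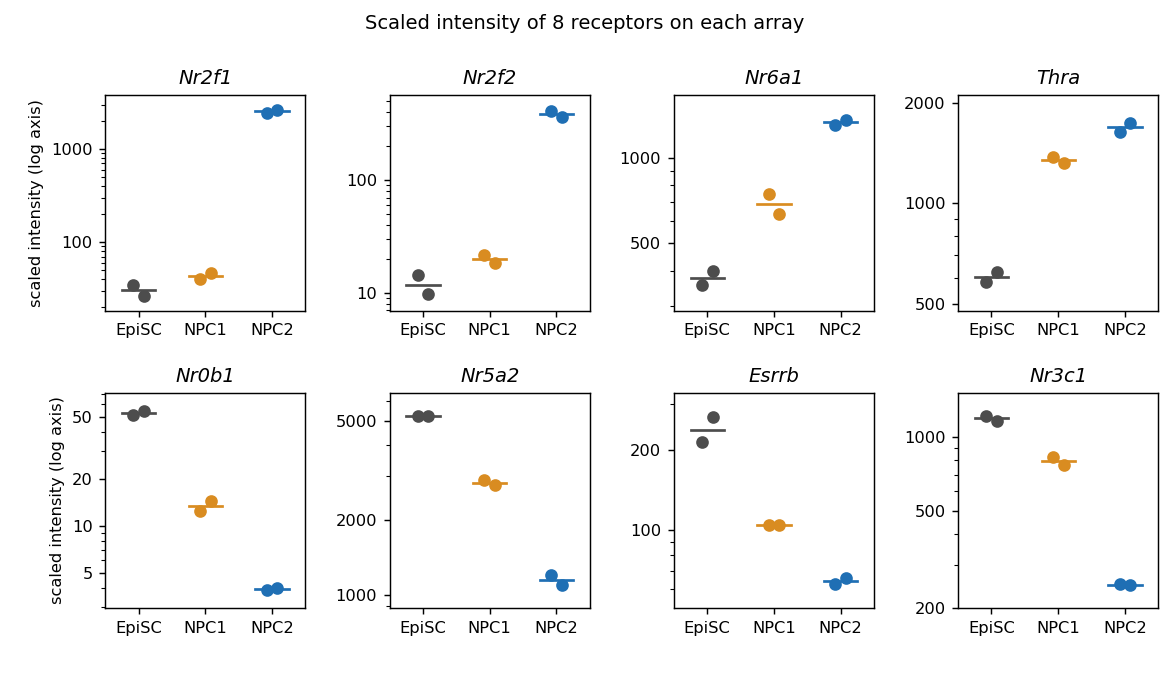
Scaled intensity on a log axis for 8 receptors on each array, with stages from left to right and a bar at the mean of the 2 arrays of a stage (mean of log2 values). Nr2f1 and Nr2f2 jump in NPC2, Nr6a1 climbs in even steps, Thra climbs mainly in NPC1, and Nr0b1, Nr5a2, Esrrb and Nr3c1 go down stage by stage. Nr0b1 in NPC2 and Nr2f2 on 1 EpiSC array were not well above background, and their points are drawn as measured.

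Thra, which encodes the thyroid hormone receptor alpha of brain and heart, rose mainly on day 1. It had 581 and 622 in EpiSC, 1379 and 1319 in NPC1 and 1637 and 1741 in NPC2. The groups did not overlap. Its log2 change was 1.17 ± 0.063, or 2.24-fold, in NPC1 against EpiSC (adjusted p = 0.00033), and 0.32 ± 0.063 in NPC2 against NPC1 (adjusted p = 0.012), a call lost without NPC1 B (adjusted p = 0.0554) or NPC2 B (adjusted p = 0.0659). The other Thra probe gave 1.40 and 1.66 in NPC1 and NPC2, each against EpiSC. Thra and Nr1d1 overlap each other in RefSeq, so whether their probes lie in the shared stretch was not tested.

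The clock receptors split. Nr1d1 and Nr1d2 (REV-ERB alpha and beta), which repress the clock gene Arntl, were lower in NPC2, and Rora, which activates it, was higher. Nr1d1 had 44.9 and 46 in NPC2 against 62.3 and 57.0 in EpiSC (-0.39 ± 0.059, adjusted p = 0.00305), and Nr1d2 had 87.2 and 92.9 against 121 and 132 (-0.49 ± 0.065, adjusted p = 0.00188; -0.27 in the value table). For both, the NPC2 arrays were the lowest of the 6. The Nr1d1 call was lost in the authors' value table (adjusted p = 0.0612), and its day 1 difference was -0.20 (adjusted p = 0.0418), lost without any of 5 of the 6 arrays.
Rora had 26.8 and 15.0 in EpiSC, 53.1 and 44.6 in NPC1 and 98.1 and 90.4 in NPC2. Its stages did not overlap, though the EpiSC duplicates differed by 0.84 on the log2 scale. It was 4.70-fold higher in NPC2 than in EpiSC (2.23 ± 0.29, adjusted p = 0.00171; 0.81 with normexp) and 2.43-fold higher in NPC1 than in EpiSC (1.28 ± 0.29, adjusted p = 0.0187; 0.35 with normexp), the day 1 call being lost without NPC1 A (adjusted p = 0.0928) or NPC1 B (adjusted p = 0.0559). The non-coding gene 9530091C08Rik, which overlaps Rora, was at least 1.32-fold higher in NPC2 than in EpiSC. Of 13 tested genes of the circadian clock list, 6 were higher and 6 lower in NPC2 than in EpiSC, beside 28.3% and 40.7% of all genes. Bhlhe40, a light-responsive clock repressor, fell by 3.13 ± 0.095, Hlf by 2.71 ± 0.14, and Bhlhe41 was at least 1.94-fold higher, being not well above background in EpiSC. Arntl fell by 0.99 ± 0.047 (adjusted p = 6.73e-05), and it is named for its link to these receptors, after its value was seen.

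Of the 6 retinoid receptors, Rarb and Rxra rose and Rara and Rarg fell in NPC2 against EpiSC, beside 28.3% higher and 40.7% lower over all genes. Rarb, itself a target of retinoic acid, had 9.84 and 15.9 in EpiSC, 16.4 and 17.4 in NPC1 and 34.4 and 29.1 in NPC2. The NPC2 arrays were highest, and the day 1 difference of 0.43 ± 0.24 was not called. In NPC2 Rarb was 2.53-fold higher than in EpiSC (1.34 ± 0.24, adjusted p = 0.00577), or 0.35 with normexp. Its call against NPC1 (0.91 ± 0.24, adjusted p = 0.0323) was lost without any 1 of the NPC1 or NPC2 arrays (adjusted p = 0.0822 to 0.138). The RefSeq promoter of Rarb (chr14:16575427-16575726, minus strand) is shown because it holds, at -52 to -37, the letters GTTCA repeated with 6 bases between (in capitals), the form of the retinoic acid response element known from this mouse gene.
Rarb: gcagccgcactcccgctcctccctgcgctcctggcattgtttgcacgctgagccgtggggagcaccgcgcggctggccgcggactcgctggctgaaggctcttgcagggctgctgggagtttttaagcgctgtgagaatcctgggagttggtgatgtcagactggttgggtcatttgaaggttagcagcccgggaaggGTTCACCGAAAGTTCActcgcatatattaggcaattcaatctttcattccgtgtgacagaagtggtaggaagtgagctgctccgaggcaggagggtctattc
It was the only one of 63 receptor promoters, and 1 of 25 among 32851 listed promoters (0.0761%), with that repeat on either strand. Because the repeat searched for is the form known from this gene, its match there was given in advance.

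Rara, the widely expressed retinoic acid receptor, had 2910 and 2952 in EpiSC, 2283 and 2356 in NPC1 and 1761 and 1981 in NPC2. It fell by 0.65 ± 0.070 in NPC2 against EpiSC (adjusted p = 0.000918; -0.43 in the value table), while a separate Rara probe gave -0.30 and was not called (adjusted p = 0.057 in a fit of all probes). Rarg, known from the tail bud and skin, had 4951 and 5204 in EpiSC, 5541 and 5915 in NPC1 and 3377 and 3680 in NPC2. Its NPC2 arrays were the lowest of the 6 and its NPC1 arrays the highest. It fell by 0.70 ± 0.069 in NPC2 against NPC1 (adjusted p = 0.00133) and by 0.53 ± 0.069 against EpiSC (adjusted p = 0.0018; -0.32 under quantile normalization and -0.30 in the value table). Of the RXR genes, whose products pair with many other receptors, Rxra had 54.8 and 57.4 in NPC2 against 34.3 and 43.1 in EpiSC (0.55 ± 0.12, adjusted p = 0.0102, lost without NPC2 B at adjusted p = 0.0564 and with normexp at 0.15, adjusted p = 0.0687). Its other probe gave 0.89 ± 0.12 (adjusted p = 0.00316 in the fit of all probes). Rxrb had 10166 and 10030 in EpiSC, 8495 and 8051 in NPC1 and 9295 and 9204 in NPC2. Its dip in NPC1 against EpiSC (-0.29 ± 0.049, adjusted p = 0.00775) was lost without EpiSC A (adjusted p = 0.0504), under quantile normalization and in the value table. Rxrg was left undecided by its probes: in the fit of all probes the brighter gave -0.15 ± 0.067 in NPC2 against EpiSC (adjusted p = 0.129) and the other 0.59 ± 0.067 (adjusted p = 0.00197).

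Genes that respond to or handle retinoic acid did not move as a block. Of 10 tested members of 14, 5 were higher and 4 lower in NPC2 than in EpiSC, beside 28.3% and 40.7% of all genes. Between NPC2 and NPC1 6 were higher and 1 lower, beside 20.8% and 26.6%. Both splits were the same under median scaling, quantile normalization and the value table. Meis2, a homeobox gene induced by retinoic acid, had 13.2 and 6.64 in EpiSC, where 1 array was not well above background, 107 and 114 in NPC1 and 710 and 728 in NPC2 (6.26 ± 0.32 in NPC2 against EpiSC, adjusted p = 8.26e-05, or 3.17 with normexp). Crabp2, which carries retinoic acid to its receptors, had 31945 and 33099 in NPC2 against 1432 and 1454 in EpiSC (4.49 ± 0.062, adjusted p = 6.29e-06). Both thus differed far beyond the spread of duplicates. Stra6, which takes up retinol, was not well above background in EpiSC and was at least 14.8-fold higher in NPC2. Cyp26b1, Cyp26c1, Stra8 and Hoxb1, further members of the list, were not tested. Tgm2, a transglutaminase gene, fell by 1.28 in NPC2 against EpiSC and Dhrs3, which returns retinal to retinol, by 0.47; both are named after their values were seen.

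**Figure D3:**
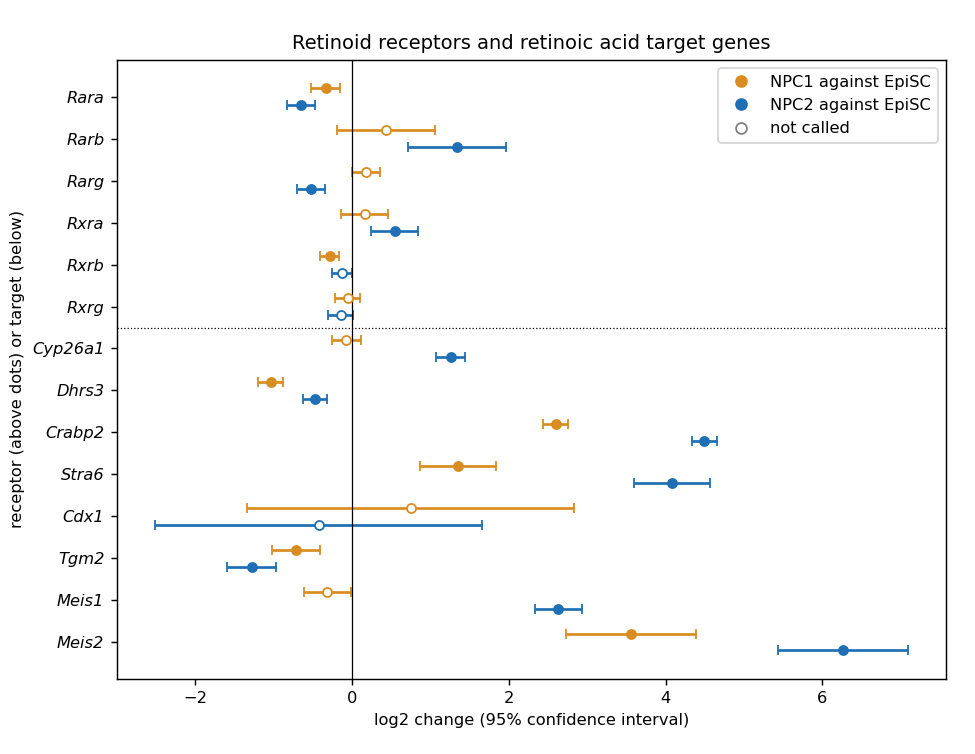
Log2 change against EpiSC for the 6 retinoid receptors (above the dotted line) and 8 of the 10 tested retinoic acid target genes, NPC1 in orange and NPC2 in blue, with 95% confidence intervals; open points were not called. Receptors lie within about 1 unit of 0 apart from Rarb in NPC2 (1.34), while Crabp2 and Meis2 reach 4.49 and 6.26. Stra6, below background in EpiSC, is drawn at its fitted value, which is no bound.

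Of 5 tested steroid and estrogen-related receptors, 4 fell in NPC2 against EpiSC and 0 rose, beside 40.7% and 28.3% of all genes. Nr3c1, the glucocorticoid receptor, had 1214 and 1159 in EpiSC, 826 and 769 in NPC1 and 250 and 249 in NPC2. The stages were apart, with the larger drop on day 2. It fell by 0.57 ± 0.057 in NPC1 against EpiSC (adjusted p = 0.00163) and was 4.75-fold lower in NPC2 than in EpiSC (-2.25 ± 0.057, adjusted p = 1.39e-05). A separate Nr3c1 probe gave -0.19 (not called) and -2.0. Pgr, the progesterone receptor gene, turned: it had 57.9 and 52.0 in EpiSC, 75.4 and 80.0 in NPC1 and 26.4 and 28.1 in NPC2. NPC1 was highest and NPC2 lowest, with no overlap. Its log2 change was 0.50 ± 0.076 in NPC1 against EpiSC (adjusted p = 0.0057) and -1.51 ± 0.076 in NPC2 against NPC1 (adjusted p = 0.000199), or 0.28 and -0.68 with normexp. The other Pgr probe, dimmer and called in 0 comparisons, gave 0.63 and -1.27.
Esrra, which with coactivators of the PGC-1 family turns on mitochondrial genes, had 2914 and 2978 in EpiSC, 2300 and 2320 in NPC1 and 1739 and 1794 in NPC2. It was lower at each stage than at the one before, by 0.74 ± 0.045 in NPC2 against EpiSC (adjusted p = 0.000139). Trmt112, a neighbour that overlaps Esrra, was not called in that comparison (-0.19 ± 0.068). Esr2, estrogen receptor beta, was called in 0 comparisons, with 0.15 in NPC2 against EpiSC (95% confidence interval -0.07 to 0.38), although quantile normalization and the value table called it.

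All 9 tested glucocorticoid target genes differed between NPC2 and EpiSC, 2 higher and 7 lower, beside 28.3% and 40.7% of all genes, and the split was the same under the other scalings. Zbtb16, a transcription factor gene induced by glucocorticoids, was the largest rise, with 2573 and 2489 in NPC2 against 50.2 and 49.0 in EpiSC (5.67 ± 0.048, adjusted p = 5.86e-06). Sgk1, a kinase gene, was 19.1-fold lower in NPC2 (-4.26 ± 0.066) and Dusp1, a phosphatase gene, 3.78-fold lower (-1.92 ± 0.045). The median of the list was -0.55 in NPC2 against EpiSC and -1.10 in NPC2 against NPC1, beside -0.10 and -0.04 over all genes. Of 8 metabolic genes under ERR receptors, 5 were lower and 0 higher in NPC2 than in EpiSC, beside 40.7% and 28.3% of all genes, led by the Krebs cycle gene Idh3a (-1.37 ± 0.063). Cycs (-0.63 ± 0.061) and Cs (-0.52 ± 0.046) followed, with -0.38 and -0.26 under quantile normalization. In the value table the ERR split was 2 higher to 4 lower, and under quantile normalization 3 to 4.

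The immediate early receptors of the NR4A group, which stimuli switch on within minutes to hours, went opposite ways in NPC2. Nr4a1 had 4680 and 5281 in EpiSC, 4247 and 4594 in NPC1 and 1884 and 1896 in NPC2. It was 2.63-fold lower in NPC2 than in EpiSC (-1.40 ± 0.078, adjusted p = 0.000109), and the day 1 difference of -0.17 was not called. Nr4a2, needed for midbrain dopamine neurons, had 14.1 and 14.1 in EpiSC, 20.0 and 22.1 in NPC1 but 209 and 54.1 in NPC2. The NPC2 duplicates differed by 1.95 on the log2 scale, more than for any other tested receptor, so its size rests on NPC2 A. Nr4a2 was 7.54-fold higher in NPC2 than in EpiSC (2.92 ± 0.63, adjusted p = 0.0107), or 1.08 with normexp, and 1.94 without NPC2 A (adjusted p = 0.0488 at most over the 6 fits that leave out 1 array). The call against NPC1 (2.34 ± 0.63, adjusted p = 0.0332) became 1.36 without NPC2 A and was lost without any 1 of the EpiSC or NPC1 arrays. A second Nr4a2 probe had 23.2 and 25.7 in NPC2 against 13.1 and 9.87 in EpiSC (1.1 ± 0.18).

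Of 6 tested receptors for fatty acids, oxysterols and xenobiotics, 1 rose and 1 fell in NPC2 against EpiSC, both by less than 2-fold. Over all genes 28.3% were higher and 40.7% lower. Nr1h2 (LXR beta) had 8375 and 8533 in EpiSC, 6111 and 6078 in NPC1 and 5311 and 5197 in NPC2. The groups did not overlap, and it fell by 0.69 ± 0.043 in NPC2 against EpiSC (adjusted p = 0.000155), with -0.45 under quantile normalization. Its relative Nr1h3 (LXR alpha) had 187 and 182 in EpiSC, 155 and 152 in NPC1 and 193 and 204 in NPC2. Its dip in NPC1 against EpiSC (-0.27 ± 0.050, adjusted p = 0.0104) was lost without EpiSC A (adjusted p = 0.0643) or EpiSC B (adjusted p = 0.0507) and in the value table. Ppara and Ppard, sensors of fatty acids, were called in 0 comparisons: NPC2 against EpiSC gave -0.04 (95% confidence interval -0.27 to 0.19) and -0.05 (-0.23 to 0.12). Pparg, the fat cell regulator, was 0.24 ± 0.059 higher in NPC2 than in EpiSC (adjusted p = 0.0184), lost without EpiSC A, EpiSC B or NPC2 A, with median scaling and with normexp. Nr1i3 (CAR) was not called (0.38 ± 0.14 in NPC2 against EpiSC, adjusted p = 0.0598), while its overlapping neighbour Tomm40l fell by 0.86.

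Target genes of these sensors were read from lists. Of 10 tested PPAR target genes 7 were lower and 1 higher in NPC2 than in EpiSC, beside 40.7% and 28.3% of all genes, with a median of -0.72, and 7 lower to 2 higher in the value table and under quantile normalization. Cpt1a, which admits fatty acids to mitochondria, had 153 and 151 in EpiSC, 26.5 and 27.0 in NPC1 and 15.6 and 15.8 in NPC2. It fell by 3.28 ± 0.042 in NPC2 against EpiSC (adjusted p = 5.86e-06), and most of the fall came by NPC1. With normexp that value was -1.48, and for Pdk4, given next, -0.49. Angptl4, an inhibitor of lipoprotein lipase, fell by 1.68 ± 0.084 and Pdk4, a brake on glucose oxidation, by 1.26 ± 0.081. Among 7 LXR targets 1 was higher and 3 lower in NPC2 than in EpiSC, beside the same 28.3% and 40.7%, and 3 to 2 in the value table. The cholesterol exporter gene Abca1, not well above background in EpiSC, was at least 1.72-fold higher in NPC2, whereas Mylip (-0.69 ± 0.099) and Lpcat3 (-0.54 ± 0.043) were lower.

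Cofactors changed by less than 2-fold in NPC2 against EpiSC. All 13 tested coactivators were called, beside 69.0% of all genes, 5 higher and 8 lower, but the split was 5 to 1 in the value table, 4 to 4 under quantile normalization and 3 to 8 with median scaling. The p160 coactivator genes Ncoa1 (0.89 ± 0.075, adjusted p = 0.00041) and Ncoa2 (0.85 ± 0.055) rose, and Ncoa4 fell by 0.88 ± 0.060. Ppargc1a was the untested member. Of 10 corepressors 3 were higher and 1 lower, beside 28.3% and 40.7% of all genes, and 6 to 1 in the value table and under quantile normalization. Lcor rose by 0.78 ± 0.14 (0.32 with normexp). Nrip1, a ligand-dependent corepressor, had 348 and 318 in EpiSC, 208 and 178 in NPC1 and 399 and 433 in NPC2. It thus dipped in NPC1, by 0.79 ± 0.099 against EpiSC (adjusted p = 0.00314), and its rise in NPC2 against EpiSC (0.32 ± 0.099, adjusted p = 0.036) was lost with median scaling and without any 1 of the EpiSC or NPC2 arrays (adjusted p = 0.0613 to 0.155).

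**Figure D4:**
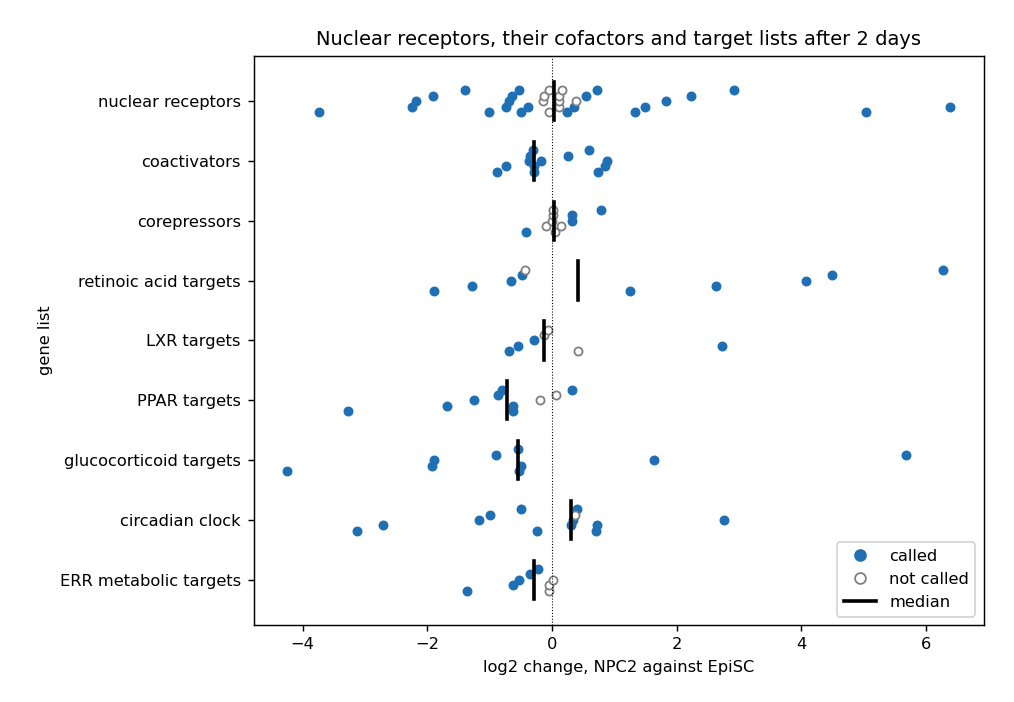
Each point is a tested gene, placed by its log2 change in NPC2 against EpiSC; filled points were called and the black bar is the median of the list. The 32 receptors spread from -3.74 to 6.39 about a median of 0.03, the PPAR targets have a median of -0.72, and cofactors stay within 1 unit of 0. Fitted values of genes below background in a group, such as Nr0b1 and Abca1, are drawn as measured and are no bounds.

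Whether the second day's change differed from the first was tested as NPC2 minus NPC1 less NPC1 minus EpiSC, comparisons that share the NPC1 arrays. The difference was called for 11 of 32 receptors, 5 higher and 6 lower, against 29.5% of all genes (14.0% higher, 15.5% lower). With median scaling the share of called genes that were higher was 61.5% over all genes in place of 47.5%, and the receptors split 6 higher to 5 lower. Nr2f1 and Nr2f2 rose mostly on day 2, as given above. A fall that came mostly or only on day 2 was seen for Nr3c1 (-0.57 on day 1, -1.68 on day 2, difference -1.10 ± 0.099, adjusted p = 0.00247) and Nr4a1 (-0.17 and -1.22, difference -1.05 ± 0.14, adjusted p = 0.00635). Pgr rose on day 1 (0.50) and fell on day 2 (-1.51), while Rarg was not called on day 1 (0.17) and fell on day 2 (-0.70), with differences of -2.01 ± 0.13 (adjusted p = 0.00111) and -0.87 ± 0.12 (adjusted p = 0.00742). Nr2f6 and Nr1h3 dipped on day 1 and came back on day 2. Rxrb dipped too (-0.29) but rose by only 0.16 on day 2 (adjusted p = 0.0463), a call kept in 7 of 15 alternatives. The day 1 dips of Nr1h3 and Rxrb were each kept in 12 of 15. Thra was the receptor whose rise slowed (1.17 and then 0.32, difference -0.84 ± 0.11, adjusted p = 0.00637). For Nr0b1, Esrrb, Rora and Rarb the difference was not called, at 0.22, 0.49, -0.33 and 0.48, with intervals as wide as -1.61 to 0.96 for Rora. Since Nr0b1 was not well above background in NPC2, its day 2 fall, and so its difference, was not fully measured. With normexp the differences of Nr0b1 and Esrrb were called.

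**Figure D5:**
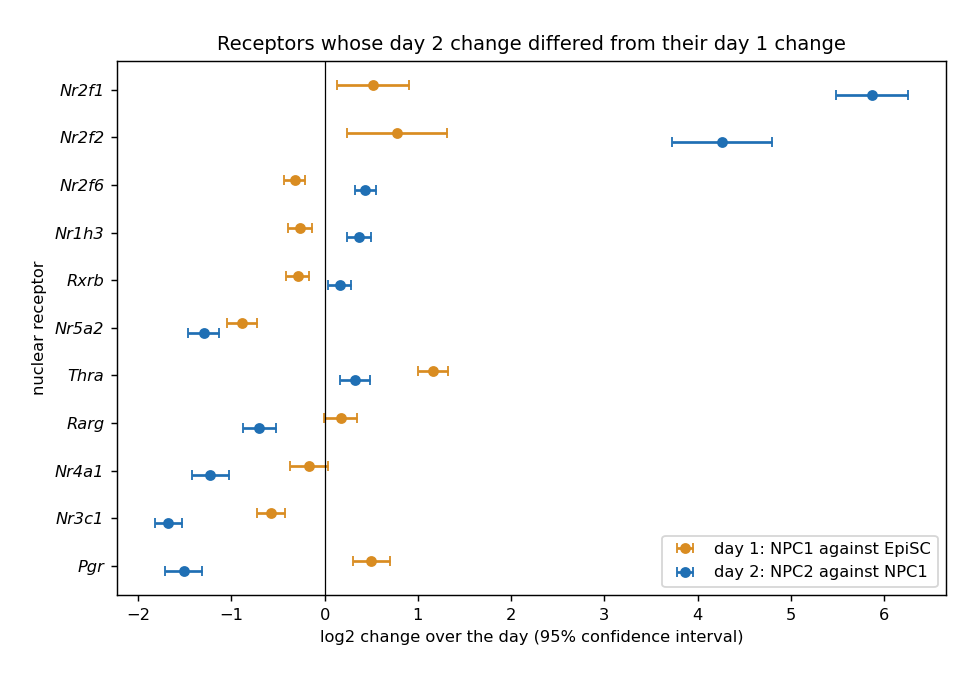
Log2 change on day 1 (NPC1 against EpiSC, orange) and on day 2 (NPC2 against NPC1, blue) for the 11 receptors whose changes differed between the days, with 95% confidence intervals. Nr2f1 has 0.52 on day 1 and 5.87 on day 2. The day 1 and day 2 changes of Pgr, Nr2f6, Nr1h3 and Rxrb lie on opposite sides of 0. So do those of Rarg, whose day 1 change was not called.

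RefSeq promoters were matched for 42 of the 46 receptors, with 63 promoters in all; the others were Nr5a1, Hnf4g, Thra and Nr3c1. The hexamer AGGTCA, searched on both strands, was in 12 of these 63 promoters (19.0%), belonging to 11 genes, and in 16.3% of all 32851. The longer TCAAGGTCA of NR5A and ERR receptors was in 0 of 63 and in 0.423% of all, and the ROR form TAGGTCA, which contains the hexamer, in 0 and in 2.61%. Direct repeats of AGGTCA with 0, 1 or 5 bases between were in 0 receptor promoters. The octamer ATGCAAAT bound by Pou5f1 was in 0 and in 1.74% of all, TGACGTCA of the cAMP response in 2 (Nr2e1 and Nr6a1) and in 1.79%, and TGACAG of MEIS factors in 15 (23.8%) and in 19.2%. The promoters of 27 receptors well above background on all 6 arrays had a median of 17 CpG per 300 bases, and those of 11 receptors on no array 9. Over all genes the same medians were 20 and 3.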

How the data were processed

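Total RNA labelled with Cy3 was hybridised to 6 one-colour Agilent arrays, all on 1 slide; batches of culture, extraction or labelling are not given in the sources used here. Scanner output was made with Feature Extraction 10.10.1.1 (protocol GE1_1010_Sep10, design 028005, build mm9), per the file headers. Its processed intensity, background-subtracted by that software per the file headers, was the starting value. The authors' deposited value table held the same intensity times a constant per array and served as an alternative. Control spots and outlier flags were left out, spots of a probe averaged, and log2 intensity set against each array's 75th percentile. Of 55646 probes, 28372 had a RefSeq accession and 26744 were named with 1 symbol (0 with several) through RefSeq GRCm38.p6, used for names and promoter sequences. A gene was represented by its brightest probe among the 33532 well above background (on more than 50% of its spots) in both duplicates of 1 or more groups. All 3 groups were fitted together in limma 3.58.1 (R 4.3.3; two-sided, 3 residual and 1.88 prior degrees of freedom), with Benjamini-Hochberg adjustment over 14772 genes. The code was tested on simulated data. Values are log2 changes ± SE.

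All 46 receptors were named, with other probes where they differ, plus, per pathway list, the 3 called genes that moved most between NPC2 and EpiSC; some of these list genes are not reported here. Genes overlapping a receptor and other named genes were added. Members and lists were chosen with earlier results of these data known. A fold against a group below background is a bound. Alternatives were normexp (offset 50), median scaling, quantile normalization, the value table, other probe filters, the mean of probes, only the groups compared, a replicate block and leaving out each array. The normexp fit used the median spot signal in place of the planned mean signal. The number of columns without a sample was 0.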

Additional observations from a re-analysis of the deposited data

Results flagged for a closer look

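For 11 receptors the change on day 2 (NPC2 against NPC1) differed from that on day 1 (NPC1 against EpiSC) in the limma fit; both changes use the NPC1 arrays. The differences, day 2 less day 1 on the log2 scale, were 5.36 for Nr2f1, 3.49 for Nr2f2, 0.76 for Nr2f6, 0.64 for Nr1h3 and 0.45 for Rxrb. They were -0.41 for Nr5a2, -0.84 for Thra, -0.87 for Rarg, -1.05 for Nr4a1, -1.10 for Nr3c1 and -2.01 for Pgr. The differences for Nr5a2 and Rxrb were each lost on leaving out any of 5 of the 6 arrays, and the other 9 were called in every alternative run.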

How the results depend on the processing

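Over 15 alternatives, 1720 of 1880 values of single receptors kept their side of the threshold, and of these 76, called in neither setting, had the other sign. A further 115 lost a call, 44 gained one and 1 reversed: Rxrg in NPC2 against EpiSC was 0.22 (adjusted p = 0.0168) as the mean of its probes. Calls kept in every alternative numbered 9 of 18 for NPC1 against EpiSC, 19 of 23 for NPC2 against EpiSC and 15 of 23 for NPC2 against NPC1. Leaving out 1 array at a time gave 12 to 15, 21 to 23 and 16 to 22 called receptors in these comparisons, and 9 to 11 for day 2 less day 1. With the replicate letter as a block, 15, 24, 22 and 10 receptors were called. The labels do not say whether samples of the same letter were handled together. The A minus B differences correlated at 0.0081, 0.0065 and -0.045 between groups, which cannot show whether the letters were paired. Normexp shrank dim receptors, with NPC2 against EpiSC at 2.60 for Nr2f2, 0.81 for Rora, 0.35 for Rarb and -0.40 for Pgr. Pathway lists and their genes were added to the alternatives after seeing the data: 59 list counts moved by over 1.5 times and 413 did not, and Meis2's day 2 less day 1 was 0.97 (adjusted p = 9.8e-06) with normexp, against -0.86 (not called). With 2 arrays per group and 14 receptors near background, small changes and low levels are the least certain.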
